A study of Glycine max with 5 samples.

Results

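Cytochrome P450 genes of soybean (Glycine max) were followed in root tips and in non-meristematic tissue of seedlings. Members were all genes whose symbol or RefSeq synonym has the form of a P450 name (CYP, a family number, a letter and a number), with the isoflavone synthase genes IFS1 and IFS2 left out. The probe-to-gene table of the array gave 31 such genes among 6031 genes that have a probe set of their own, and each was read from the brightest of its probe sets (by mean log2 signal over the arrays). They fall into 17 groups by P450 family number, 1 of which holds LOC100789410 alone, because RefSeq gives this gene the names CYP81E10 and CYP82E13 and so does not settle its family.

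Root apical meristem, dissected as the terminal 0.5 mm of the root, was hybridized to 3 arrays, and non-meristematic tissue to 2. Both groups came from seedlings of the genotype Bragg, 10 days old and grown at 28 °C without fertilizer, and the labels name no treatment or mutation. The tissue field names leaf for the non-meristematic samples, whereas the treatment protocol speaks of what was left of the plant, so what they contain is not settled by the labels. The free-text sample descriptions speak of embryos, against every other field, and were not used. Root tip and leaf are different organs, so a difference between organs and a difference between dividing and mature tissue cannot be told apart here, nor can fewer cells of a type and less RNA per cell.

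Cytochrome P450 enzymes are heme proteins that mostly insert oxygen into small molecules, with electrons supplied by a reductase in the endoplasmic reticulum. Plants carry large P450 families that make lignin precursors, flavonoids, triterpenoids, cutin, carotenoids and hormones, and that break down herbicides. In soybean roots, P450 enzymes are known for steps of isoflavonoid phytoalexin and soyasaponin synthesis. CYP74 enzymes are an exception in chemistry: they rearrange fatty acid hydroperoxides and need neither oxygen nor a reductase.

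Values below are MAS5 signals on a linear scale, in which the background of an array is its 25th percentile (17.9 to 22.5 on root meristem arrays, 37 and 26.3 on non-meristematic arrays 1 and 2). Differences are log2 root meristem minus log2 non-meristematic signal, with limma's standard error (SE). A gene was tested if at least 2 arrays showed it above background, and it passed at an adjusted p below 0.05 with a log2 difference of at least 1 in size. Where a group lay at or below background on all its arrays, a fold is given as "at least", with that group held at background or at its own signal, whichever was higher.

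Of the 31 P450 genes, 25 were tested. Of these, 6 were higher in root meristem, 9 were lower and 10 did not pass. Over the 5650 genes tested on the array, 18.6% were higher and 21.0% lower (39.7% in either direction), against 24% and 36% of the P450 genes tested. The sample groups did not overlap at 21 of the 25 genes, against 70.4% of all genes tested. The median log2 difference was -0.70 for the 25 genes and 0.20 for all genes tested. These shares describe genes that passed the signal filter, some of which passed it through 1 group alone. Over all 30941 probe sets tested, 4452 were higher (14.4%) and 5608 lower (18.1%), a split that turned to 5719 and 4717 after quantile normalization and to 7668 and 4689 after median centring. The P450 counts under these scalings were 7 higher and 10 lower, and 7 higher and 8 lower.

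**Figure D1:**
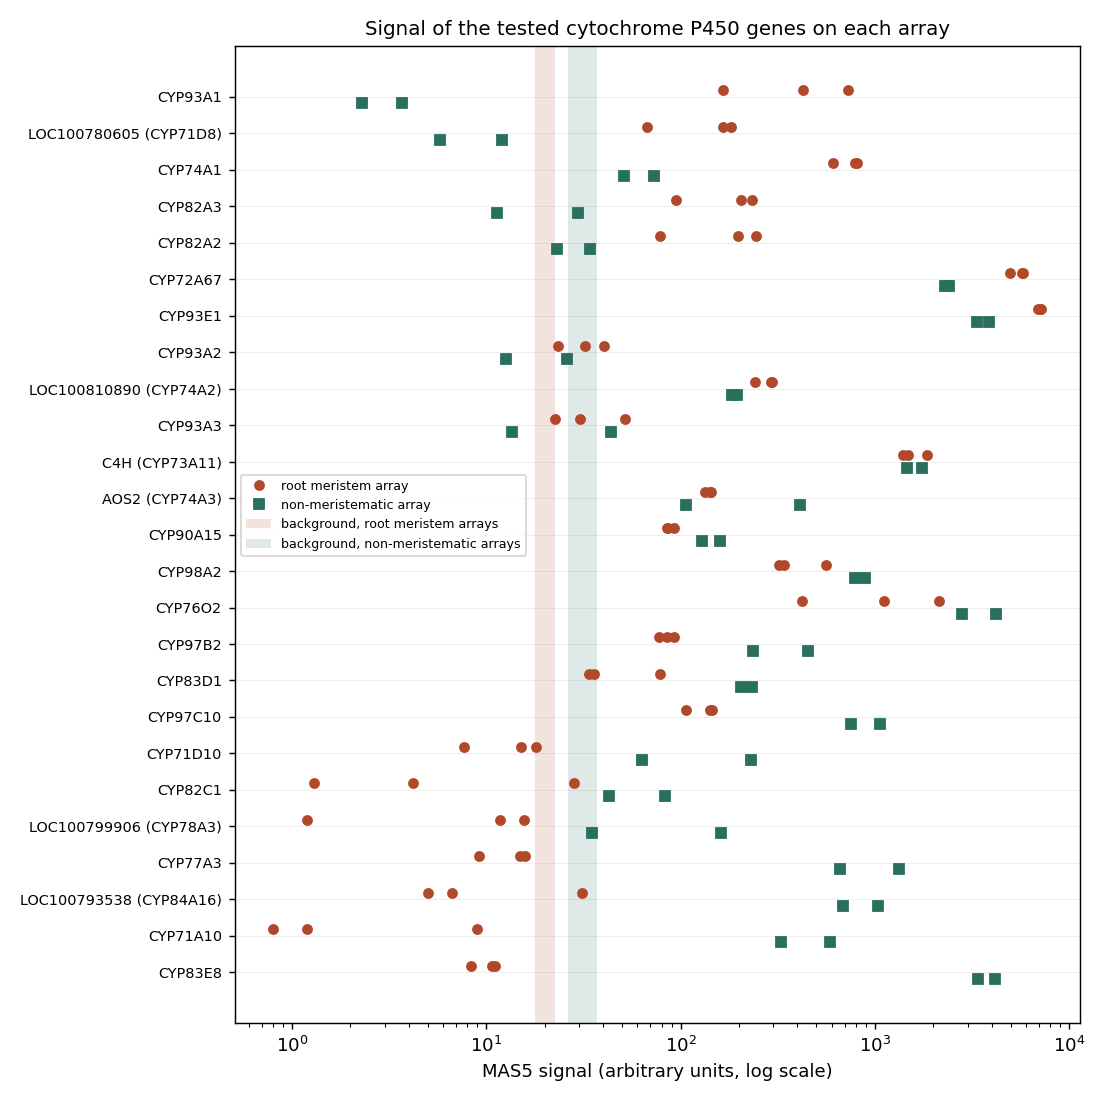
MAS5 signal (log axis) of the 25 tested P450 genes on each of the 3 root meristem arrays (circles) and 2 non-meristematic arrays (squares), ordered by log2 difference, with the background range of each group shaded. CYP93A1 at the top has root meristem signals of 165.9 to 728.6, against 2.3 and 3.7 in non-meristematic tissue, and CYP83E8 at the bottom has 8.4 to 11.1 against 3414.3 and 4152.2.

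Of the 3 P450 genes of the phenylpropanoid route, 2 were lower in root meristem and 1 did not pass. C4H (CYP73A11), the cinnamate hydroxylase at the entry of the route, had signals of 1857.7, 1482.5 and 1395.5 in root meristem, against 1463.2 and 1745.6 in non-meristematic tissue. The sample groups overlapped, and the log2 difference was -0.03 (95% interval -0.49 to 0.43, adjusted p = 0.921). LOC100793538 (CYP84A16), in the family of the ferulate hydroxylases that lead to syringyl lignin in Arabidopsis, had 6.7, 5.0 and 31.1 in root meristem, against 686.4 and 1042.4 in non-meristematic tissue. Root meristem array 3 alone lay above background, and the gene was lower in root meristem by 6.38 ± 0.78 on the log2 scale (adjusted p = 0.00134).

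CYP98A2 belongs to the family that hydroxylates p-coumaroyl esters on the way to caffeoyl compounds and lignin. Its signals were 557.7, 322.3 and 342.2 in root meristem, against 891.6 and 788.7 in non-meristematic tissue. It was lower in root meristem (log2 -1.09 ± 0.28, adjusted p = 0.023), close to the minimum size. The call was lost after median centring (log2 -0.73) and without any 1 of root meristem array 2 (-0.94), root meristem array 3 (-0.98) or non-meristematic array 1 (just short of the minimum size, adjusted p = 0.0502 with the tested probe sets kept). Of its 5 other probe sets 3 were lower and 2 did not pass. The brightest one that is not marked as able to cross-hybridize had a log2 difference of -0.18 ± 0.25. Dimmer unmarked probe sets were lower (log2 -1.52 ± 0.32 and -1.89 ± 0.34) or did not pass (log2 -0.93 ± 0.34).

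Among the P450 genes of isoflavonoid and pterocarpan synthesis, CYP93A1 was higher in root meristem. It encodes the dihydroxypterocarpan hydroxylase (D6aH) that forms glycinol, a precursor of the glyceollin phytoalexins. Its signals were 728.6, 429.4 and 165.9 in root meristem, against 3.7 and 2.3 in non-meristematic tissue. All root meristem arrays lay above background and both non-meristematic arrays below it, so that the gene was at least 12-fold higher (log2 7.0 ± 0.64, adjusted p = 0.000431). The probe set carries the suffix _s_at, which marks it as able to bind transcripts of other genes. The other CYP93A1 probe set, unmarked, had 44.8, 37.2 and 18.1 in root meristem, against 18 and 21.4 in non-meristematic tissue, and did not pass (log2 0.67 ± 0.54, adjusted p = 0.367).

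The nearest named relatives of CYP93A1 stayed close to background. CYP93A2, which RefSeq also calls P6aH, ranged from 23.5 to 40.5 in root meristem, against 12.6 and 26.0 in non-meristematic tissue (log2 0.79, 95% interval -0.47 to 2.06). CYP93A3 ranged from 22.7 to 51.8 in root meristem, against 13.6 and 43.7 in non-meristematic tissue (log2 0.43, 95% interval -1.11 to 1.97). Neither passed, and CYP93A2 did after quantile normalization (log2 1.40, adjusted p = 0.0412). CYP93A1 and CYP93A3 lie on the same chromosome with 15 genes between them in the RefSeq gene order of Glycine_max_v4.0, the closest pair among the P450 genes. Whether the difference of CYP93A1 differs from those of CYP93A2 and CYP93A3 was not tested.

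Several other P450 genes with names from flavonoid metabolism, or from families that include it, were too dim to test. F6H1 (CYP71D9), a flavonoid hydroxylase gene, had signals of 5.1 to 12.6 in root meristem, against 2.2 and 13.5 in non-meristematic tissue. CYP81E11, from the subfamily that holds the isoflavone hydroxylases of licorice and Medicago, had 8.3 to 18.9 in root meristem, against 4.7 and 11 in non-meristematic tissue. LOC100789410 (CYP81E10/CYP82E13), whose family and substrate are not settled by its names, had 4.8 to 14.1 in root meristem, against 10.2 and 29.4 in non-meristematic tissue. None of these 3 genes lay above background on any array, so nothing can be said of a difference.

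In the list of genes of neighbouring phenylpropanoid and isoflavonoid steps, most were higher. Of 27 tested, 18 were higher and 6 lower, and 3 fell short of the thresholds. Their median log2 difference was 2.05, against 0.20 for all genes tested. The PAL and 4CL genes of the list, which stand for its phenylpropanoid steps, were divided. PAL2.1 (log2 1.80 ± 0.24), 4CL4 (1.48 ± 0.23) and 4CL (1.03 ± 0.31) were higher. 4CL1 (log2 -2.71 ± 0.43) and 4CL2 (-2.60 ± 0.33) were lower, and 4CL3 (0.74 ± 0.30) did not pass. The list was drawn up with results of these data known, holds the 2 isoflavone synthase genes, and takes in CHIA1, a chitinase gene that matched by symbol. HIDH, a hydroxyisoflavanone dehydratase gene that completes the isoflavone skeleton, had 4017.1, 3462.9 and 3548.7 in root meristem, against 410.3 and 642.4 in non-meristematic tissue (log2 2.84 ± 0.22, adjusted p = 0.000251). G4DT, whose product prenylates glycinol, had 131.1, 196.9 and 94.1 in root meristem, against 23.2 and 10.4 in non-meristematic tissue, at least 4.31-fold higher (adjusted p = 0.0034). The isoflavone reductase gene IFR was at least 6.1-fold higher, with 159.6 to 243 in root meristem, against 14.3 and 18.7 in non-meristematic tissue. IF7GT, an isoflavone glucosyltransferase gene, was lower in root meristem (80.3 to 152.8, against 678.1 and 729.5, log2 -2.55 ± 0.33), while IF7MaT, whose product malonylates the glucosides, was higher (log2 4.41 ± 0.24).

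Both P450 genes of the triterpenoid group had signal well above background in each tissue. CYP93E1 encodes the beta-amyrin hydroxylase of soyasaponin synthesis. Its signals were 7093.2, 6905.2 and 7190.9 in root meristem, against 3847.4 and 3340.8 in non-meristematic tissue. The sample groups did not overlap and the adjusted p was 0.00158, but the log2 difference of 0.98 ± 0.12 fell short of the minimum size, so the gene did not pass. It passed after median centring (log2 1.33) and without non-meristematic array 1 (log2 1.08), and 1 of its 3 other probe sets was higher (log2 1.35 ± 0.21). CYP72A67, a name known from Medicago truncatula for an oxidase of triterpene sapogenins, had 4940.6, 5736.9 and 5821.4 in root meristem, against 2298.8 and 2422.2 in non-meristematic tissue. It was higher by 1.22 ± 0.14 (adjusted p = 0.00103), and its other probe set was higher by 1.65 ± 0.23.

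Of 4 tested genes in the sterol and saponin list, 2 were higher, 1 lower and 1 did not pass. The soyasaponin glycosyltransferase gene SGT2 had a log2 difference of 1.98 ± 0.18 and SGT3 one of 1.43 ± 0.17. LOC732565, a separate locus that also carries the name SGT3, had 1.5 to 4.0 in root meristem, against 7149.3 and 3840.8 in non-meristematic tissue, at least 258-fold lower. It entered the list by that name alone, which does not settle whether its product acts in saponin synthesis. The sterol methyltransferase gene SMT2-2 did not reach the minimum size (log2 0.73 ± 0.12).

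Of the 3 CYP74A genes, 1 was higher in root meristem and 2 did not pass. The subfamily is that of allene oxide synthase, which starts the branch of fatty acid hydroperoxides that leads to jasmonate. CYP74A1 had signals of 790.1, 809.1 and 605.8 in root meristem, against 51.4 and 73.1 in non-meristematic tissue. Each group was tight and the gene was 11.9-fold higher (log2 3.57 ± 0.26, adjusted p = 0.000201). LOC100810890 (CYP74A2), for which RefSeq also gives the name HPL, had 296.4, 292.3 and 241.4 in root meristem, against 183.5 and 195.2 in non-meristematic tissue. The sample groups did not overlap, and the gene did not pass (log2 0.54, 95% interval 0.01 to 1.07, adjusted p = 0.0964). It was measured by a marked probe set. AOS2 (CYP74A3) had 133.3, 141.6 and 142.9 in root meristem, against 413.3 and 106.1 in non-meristematic tissue, so that non-meristematic arrays 1 and 2 lay on either side of the root meristem arrays. It did not pass (log2 -0.59 ± 0.54, adjusted p = 0.422). Its direction depended on the non-meristematic array used: without array 2 the log2 difference was -1.57 and passed, and without array 1 it was 0.39 and did not.

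Genes of the oxylipin steps next to CYP74 were divided. Of 13 tested, 5 were higher, 3 lower and 5 did not pass. Allene oxide cyclase, which acts on the product of allene oxide synthase, was represented by AOC3 (higher, log2 2.05 ± 0.49), LOC100800036 (AOC2, higher, log2 1.85 ± 0.33), AOC6 (lower, log2 -1.38 ± 0.20) and AOC4. AOC4 did not pass, with 553.8 to 698.3 in root meristem, against 1832.1 and 99.6 in non-meristematic tissue. AOS1, an allene oxide synthase gene without a listed CYP name, did not pass either (log2 0.78 ± 0.49). Non-meristematic array 1 was the brighter one for both AOC4 and AOS2. It was also brighter than array 2 for AOC3 (1242.0 against 336.6), AOC2 (144.4 against 73.9) and AOS1 (284.0 against 84.0). For AOC6 (709.6 on array 1 and 877.6 on array 2), CYP74A1 and CYP74A2 array 2 was the brighter one.

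**Figure D2:**
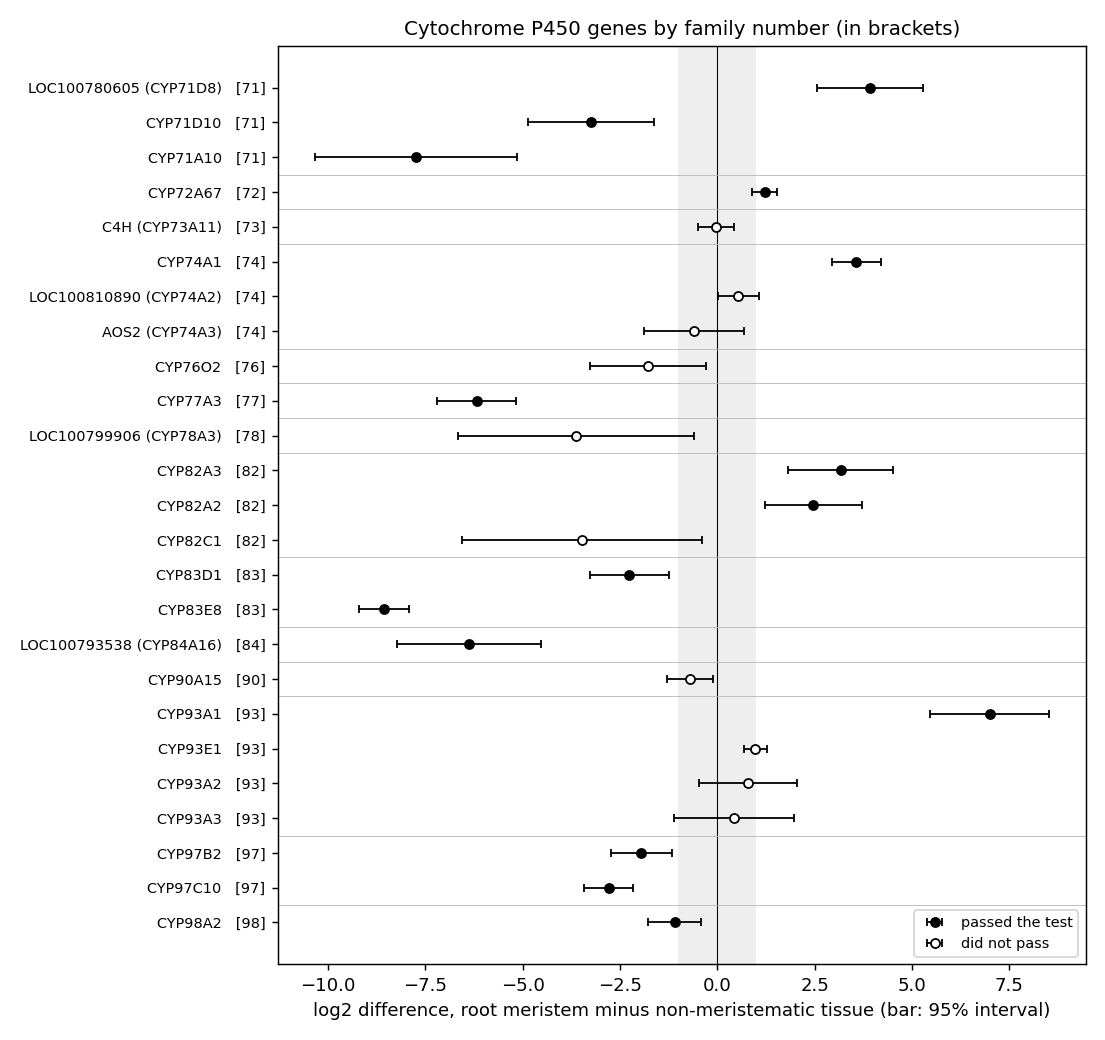
Log2 difference (root meristem minus non-meristematic tissue) of the 25 tested P450 genes with its 95% interval, grouped by family number; filled points passed the test, open points did not, and the grey band marks differences under 1 in size. Family 71 holds points on both sides (3.92 for CYP71D8, -3.24 and -7.74 for CYP71D10 and CYP71A10), and both members of families 83 and 97 lie on the left.

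Both P450 genes of family 97 were lower in root meristem. This family includes enzymes that hydroxylate carotenoid rings in plastids, and the CYP97C enzyme of Arabidopsis acts in lutein synthesis. The substrate of CYP97B2 is not settled by its name. CYP97C10 had 141.9, 107.1 and 144.6 in root meristem, against 756.4 and 1065.6 in non-meristematic tissue (log2 -2.79 ± 0.26, adjusted p = 0.000509). CYP97B2 had 85.3, 77.2 and 92.8 in root meristem, against 235.6 and 455.4 in non-meristematic tissue (log2 -1.95 ± 0.33, adjusted p = 0.00475). ZEP, the zeaxanthin epoxidase gene and the single match of the carotenoid list, was also lower, with 21.9, 27.2 and 24.0 in root meristem, against 1578.4 and 443.9 in non-meristematic tissue (log2 -5.11 ± 0.52). Most marker genes of leaf and photosynthesis were lower too: 8 of 9 were lower and 1 did not pass (median log2 difference -5.95 over the 9). Their summed signal was 5190.4 to 5443.8 on root meristem arrays, against 38716.4 and 29880.3 on non-meristematic arrays. Most of the root meristem sum came from PSAD, the gene that was not lower (4661.5 to 4996.1 in root meristem, against 2833.1 and 3178.3 in non-meristematic tissue). The 8 others summed to 447.7 to 546.1 in root meristem, against 35883.3 and 26702 in non-meristematic tissue. Of the 9 markers, 6 exceeded background on every root meristem array, 2 on 1 of them and RCAALPHA, a Rubisco activase gene, on none. Their part in the P450 differences was not tested.

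Of the P450 genes linked to fatty acids and the plant surface, CYP77A3 was lower in root meristem. Relatives of it oxidize cutin monomers in Arabidopsis. It had 15.8, 9.2 and 15 in root meristem, all below background, against 661.7 and 1338.0 in non-meristematic tissue, at least 46.4-fold lower (log2 -6.18 ± 0.42, adjusted p = 0.000153). Its other probe set was also lower (log2 -4.78 ± 0.39). CYP94D24, of a family that oxidizes fatty acids, was not tested, with 9.4 to 35.4 in root meristem, against 24.7 and 29.6 in non-meristematic tissue.

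The P450 genes linked to brassinosteroids and organ growth did not pass. CYP90A15, from the brassinosteroid-synthesis family that holds CPD of Arabidopsis, had 93.1, 86.0 and 85.7 in root meristem, against 159.1 and 128.7 in non-meristematic tissue. The sample groups did not overlap (log2 -0.70, 95% interval -1.30 to -0.10, adjusted p = 0.066). LOC100799906 (CYP78A3), in the family of the Arabidopsis organ-growth gene KLUH, ranged from 1.2 to 15.7 in root meristem, against 34.9 and 161.8 in non-meristematic tissue (log2 -3.63 ± 1.27, adjusted p = 0.0611). All root meristem arrays lay below background, and with them held there the gene was at least 3.71-fold lower. It passed with signals floored at 16 (log2 -2.23) and with 16 added to each signal (log2 -1.94). With the tested probe sets kept, the log2 difference was -4.74 without non-meristematic array 2, the dimmer one, and -2.53 without array 1. Of 4 tested gibberellin and brassinosteroid genes (GA20OX3, GA2OX6, GA2OX8 and BRI1B), 0 passed in limma, while 2 had an unadjusted p below 0.05. The share of all genes tested under that unadjusted limit was not counted. Of the 2 cytokinin genes, IPT and CKX3, 0 were tested.

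Family 71 held genes that differed in both directions. LOC100780605 (CYP71D8) had 165.6, 181.1 and 67.2 in root meristem, against 12 and 5.8 in non-meristematic tissue. It was at least 4.05-fold higher (log2 3.92 ± 0.57, adjusted p = 0.00266). Both of its other probe sets, which are marked, were also higher, at least 3.94-fold and at least 1.02-fold. The latter had 27.5, 46.7 and 25.2 in root meristem, against 4.6 and 1.2 in non-meristematic tissue. CYP71D10 had 18, 15.1 and 7.7 in root meristem, all below background, against 230.7 and 63.0 in non-meristematic tissue, at least 5.95-fold lower (log2 -3.24 ± 0.68, adjusted p = 0.0102). CYP71A10, whose product can metabolize phenylurea herbicides, had 9.0, 1.2 and 0.8 in root meristem, against 329.4 and 587.6 in non-meristematic tissue, at least 21.7-fold lower (log2 -7.74 ± 1.09, adjusted p = 0.0023). CYP71A9 was not tested: it had 2.2, 9.1 and 12.1 in root meristem, against 22.5 and 33.5 in non-meristematic tissue, and only non-meristematic array 2 lay above background. The other untested member of the family is F6H1.

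In family 82, CYP82A2 and CYP82A3 were higher in root meristem. CYP82A2 had 245.4, 197.6 and 78.8 in root meristem, against 34.3 and 23.1 in non-meristematic tissue, at least 5.01-fold higher (log2 2.47 ± 0.52, adjusted p = 0.0106). CYP82A3 had 233.2, 205.5 and 94.6 in root meristem, against 11.4 and 29.7 in non-meristematic tissue, 8.99-fold higher (log2 3.17 ± 0.56, adjusted p = 0.00547). That fold rests in part on a signal below background. Non-meristematic array 1 lay below its background of 37, and array 2 just above its background of 26.3. The folds of CYP82A2 and CYP82A3 are therefore not on the same footing. For both genes the values came from marked probe sets, so that signal shared between these relatives cannot be told apart. Each gene also has an unmarked probe set that was higher (log2 2.50 ± 0.63 for CYP82A2, 2.74 ± 0.61 for CYP82A3), and each has 1 that was tested and did not pass. Averaged over its 4 probe sets, CYP82A3 did not pass (log2 1.39, adjusted p = 0.0757). LOC100778056 (CYP82A4) was below background on all 5 arrays, with at most 12.7 in root meristem and at most 7.2 in non-meristematic tissue. CYP82C1 ranged from 1.3 to 28.2 in root meristem, against 42.8 and 83.5 in non-meristematic tissue, and did not pass (log2 -3.48 ± 1.29, adjusted p = 0.0722). It passed with a floor of 16 (log2 -1.63), with 16 added to each signal (-1.62) and without root meristem array 1, its brightest (-4.68).

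Both family 83 genes were lower in root meristem. CYP83E8 had 11.1, 8.4 and 10.7 in root meristem, against 3414.3 and 4152.2 in non-meristematic tissue, at least 186-fold lower (log2 -8.56 ± 0.27, adjusted p = 2.8e-05). It is measured by 1 marked probe set. CYP83D1 had 78.5, 33.9 and 36.0 in root meristem, against 234.2 and 204.8 in non-meristematic tissue (log2 -2.26 ± 0.42, adjusted p = 0.00674), and its dimmer probe set did not pass. CYP76O2 had 2138.8, 1116.5 and 423.8 in root meristem, against 4201.1 and 2797.4 in non-meristematic tissue. The sample groups did not overlap, and the gene did not pass (log2 -1.77 ± 0.62, adjusted p = 0.0614). Its other probe set, unmarked, was lower (log2 -2.49 ± 0.63, adjusted p = 0.0206), and the brightest probe set passed after quantile normalization (log2 -1.92) and without root meristem array 1 (log2 -2.32).

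**Figure D3:**
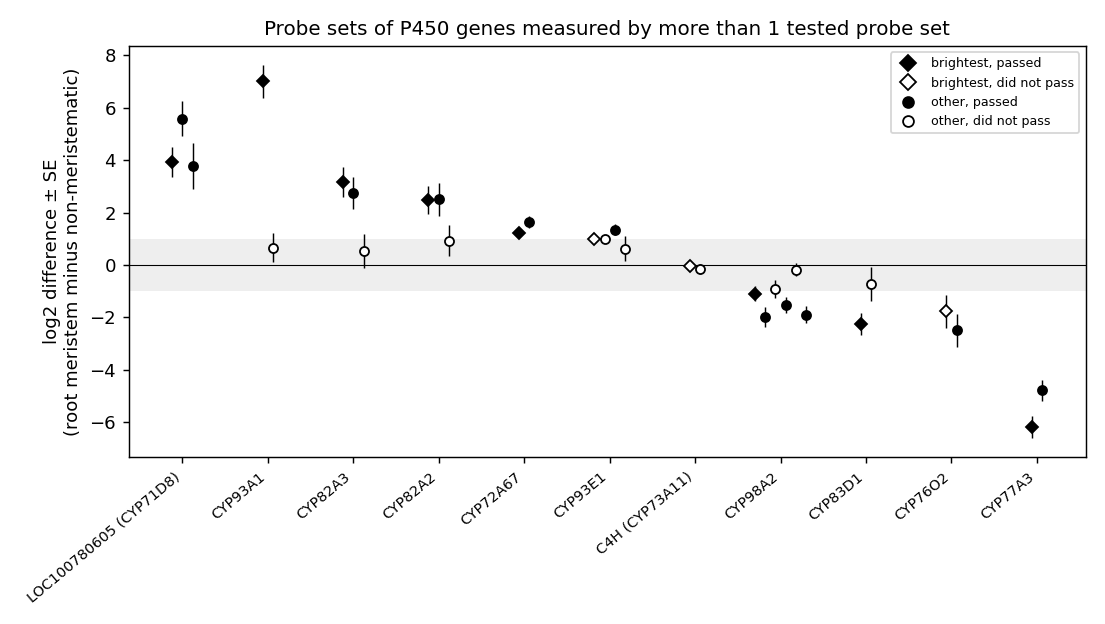
Log2 difference ± SE of every tested probe set of the 11 P450 genes with more than 1 tested probe set; diamonds are the brightest probe set of a gene, circles the others, and filled symbols passed the test. CYP93A1 has 7.0 on its brightest probe set, a value that rests on non-meristematic signals below background, and 0.67 on the other, and no gene has probe sets that passed in opposite directions.

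Probe sets of a gene did not always give the same call. Of the 31 genes, 12 have more than 1 probe set, and 11 have more than 1 that was tested. CYP71D8, CYP72A67 and CYP77A3 passed on all their tested probe sets. C4H passed on neither of its 2. CYP82A2, CYP82A3, CYP83D1, CYP93A1, CYP93E1, CYP98A2 and CYP76O2 passed on some and not on others. Of the 31 genes, 10 were read from a marked probe set, and 5 of those passed: CYP82A2, CYP82A3, CYP83E8, CYP93A1 and CYP98A2.

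The root meristem arrays were not alike for these genes. Of the 18 P450 genes above background on all root meristem arrays, 7 (38.9%) varied more than 2-fold between those arrays, against 10.9% of the 5010 such genes on the array. Array 3 was the lowest at CYP93A1, CYP82A2, CYP82A3, CYP71D8 and CYP76O2, which are 5 of those 7. Over all 18 genes it was lowest at 10 (55.6%), against 39.5% of all such genes. Genes matched by symbol as seed maturation or late embryogenesis proteins moved likewise, with array 3 lowest at 22 of the 26 that exceeded background on each of the 3 arrays, and the summed signal of the list of 31 was 32696.1, 21768.5 and 14904.5 on root meristem arrays 1, 2 and 3, against 7165.7 and 5959.5 on non-meristematic arrays. The list takes in PMM, which matched by the start of its symbol alone. PMM was highest on root meristem array 3 (1318.5, against 1077.0 and 1177.7 on arrays 1 and 2). Of that list, 16 of 28 tested genes were higher and 0 lower in limma. There 21 had an unadjusted p below 0.05, a share that was not counted over all genes tested. The part of this list in the P450 differences was not tested. Between the non-meristematic arrays, 4 of 19 P450 genes varied more than 2-fold: CYP78A3 (4.64-fold), AOS2 (3.9-fold), CYP71D10 (3.66-fold) and CYP77A3 (2.02-fold). The share over all genes was not counted for these 2 arrays, so whether 4 of 19 is unusual cannot be said.

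**Figure D4:**
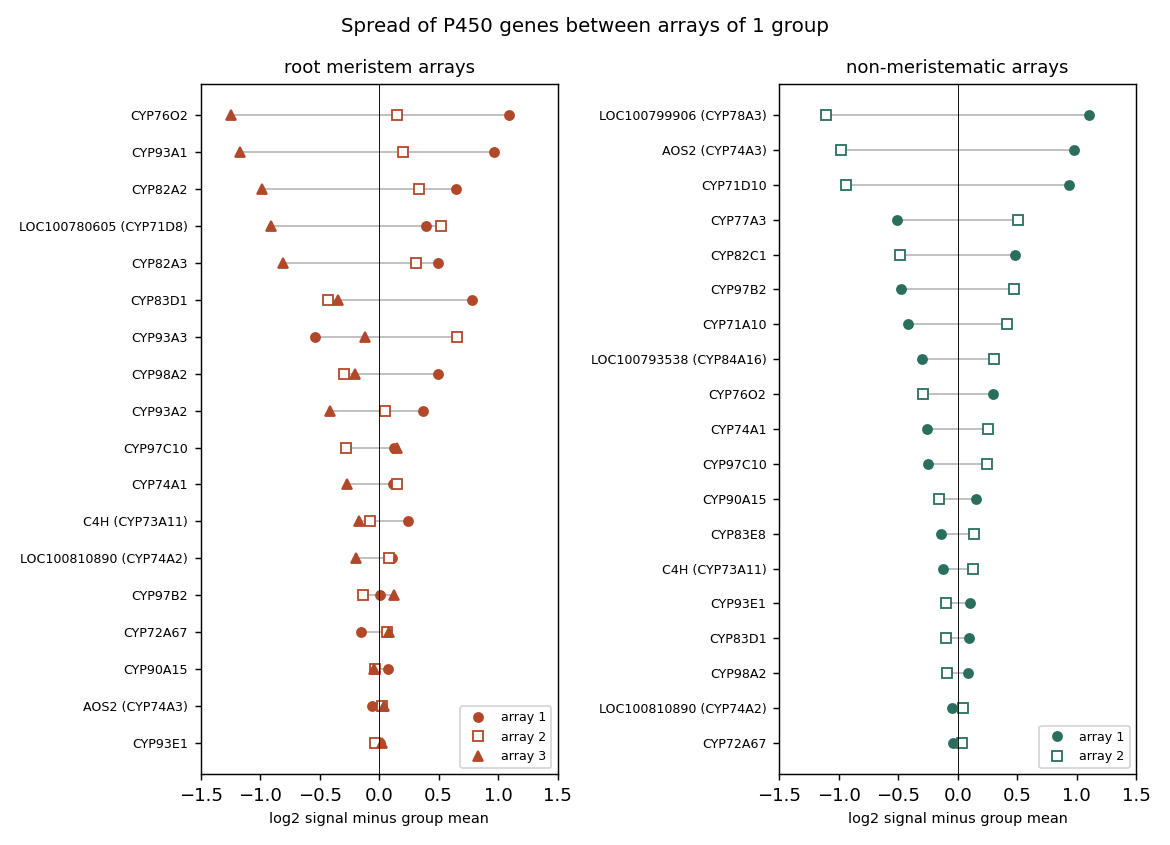
Log2 signal of each array minus the mean of its group, for the 18 P450 genes above background on all root meristem arrays (left) and the 19 above background on both non-meristematic arrays (right), ordered by spread. Array 3 is the lowest root meristem array at 10 of 18 genes, and the 4 genes at the top right vary more than 2-fold between the non-meristematic arrays.

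Marker lists of other tissues were read beside these genes. Root tip and cell division markers (PIN2A, H4 and LOC548079, which encodes PCNA) were higher at 3 of 3. The leaf storage list was lower at 3 of 3, with a summed signal of 246.8 to 315.7 on root meristem arrays, against 22141.4 and 27726.5 on non-meristematic arrays. The phloem list was lower at 7 of 7 tested genes, with a summed signal of 333.8 to 523 on root meristem arrays, against 4995.3 and 4820.6 on non-meristematic arrays. The part of these tissues in the P450 differences was not tested.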

How the data were processed

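RNA of 3 root meristem and 2 non-meristematic samples (biotin-labelled cRNA from 6 µg of total RNA, per the labels' protocols) was measured on an Affymetrix soybean array. The authors deposited signal intensities made with MAS5, per the submitters' processing notes, and the values are linear. The MAS5 version, the scaling target and any detection calls are not stated in those notes. The 2% trimmed mean lay between 268 and 277 on the 5 arrays. Arrays carry no count of molecules, and their number limits the precision. Sample titles speak of biological replicates and say no more. A p-value weighs a difference against only the variation between these samples, moderated across probe sets. That variation may in part be technical.

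Of 37593 probe sets, 8677 had 1 gene, 370 several and 28546 none listed; 8652 matched by Entrez number to the RefSeq table of Glycine_max_v4.0, used for names and gene order only. Signals were floored at 0.1 and put on a log2 scale without another scaling step. The test was that of limma (version 3.58.1, R version 4.3.3; lmFit, eBayes with trend, 3 residual and 3.68 prior degrees of freedom) and Benjamini-Hochberg adjustment over the 30941 probe sets above background on at least 2 arrays. Folds are 2 to the power of the log2 difference. The code was tested on simulated data. Signals on every array are given for the P450 genes that passed (up to 10 in each direction), for families with calls in both directions and for the 6 brightest tested genes that did not pass; other genes are given by range. The members, lists and tests were chosen with earlier results of these data known. Electron donors of P450 enzymes were listed too, and no symbol matched. No sequence is printed.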

Additional observations from a re-analysis of the deposited data

How the results depend on the processing

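Alternatives were quantile normalization, median centring, a floor of 16, 16 added before log2, no filter, a stricter filter, background at the 40th percentile, no intensity trend, a replicate block, no marked probe sets, the mean over a gene's probe sets, and each array left out. Chosen after seeing the data, non-meristematic arrays were also left out with the tested probe sets kept. None of the 15 P450 genes that passed reversed its direction in these. AOS2 passed only without non-meristematic array 2 (log2 -1.57) and had the opposite sign without array 1 (0.39). Of the 15 genes, 8 kept their call throughout: CYP71D8, CYP72A67, CYP74A1, CYP82A2, CYP83D1, CYP84A16, CYP97B2 and CYP97C10. The count of higher P450 genes was 5 to 7 in every alternative, against 6. The count of lower ones was 8 to 11, against 9, apart from the fits without non-meristematic array 1 (4) or array 2 (6). There CYP71A10, CYP71D10, CYP77A3 and CYP83E8, which lie above background in non-meristematic tissue only, had 1 such array left and failed the filter of 2 arrays; with the tested probe sets kept the counts were 8 and 11. With arrays left out in turn, the lower count thus ranged from 4 to 11 and the higher one from 6 to 7. A lone non-meristematic array is assumed to vary like the other group. CYP93A1 was lost without marked probe sets (log2 0.67, adjusted p = 0.369), CYP83E8 was then not measured, and CYP98A2 lost its call (-0.18). CYP71D10 failed the filter with background at the 40th percentile. Over all probe sets, median centring gave 7668 higher, against 4452. Across all tested probe sets the median log2 difference was 0.07, and it was 0.30 after quantile normalization and 0.43 after median centring.

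The labels give replicates 1 and 2 in both groups. Deviations from the group means of arrays with the same number correlated at 0.10 (replicate 1) and -0.09 (replicate 2) across probe sets. The deviations of the 2 non-meristematic arrays mirror each other, so a correlation with one array is that with the other with its sign turned. Such values cannot decide whether a shared number marks a shared plant, batch or day. With the replicate block, 6 P450 genes were higher and 10 lower (3345 and 4244 of all probe sets), CYP98A2 lost its call (log2 -0.98, adjusted p = 0.0643) and 2 genes passed, CYP76O2 (-1.15) and CYP78A3 (-4.11, adjusted p = 0.0184).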
